A study of Mus musculus with 6 samples.

Results

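The aminoacyl-tRNA synthetases are the enzymes that join each amino acid to its transfer RNA, and 36 of their genes were followed here among the 23396 genes of the deposited table. The genes were matched by symbol, and all 36 were found. The 16 genes whose names end in 2 encode mitochondrial enzymes, and the other 20 encode enzymes that work in the cytosol. The family was chosen from the measured values, because 1 member, Lars2, spread widely between libraries. The levels and the fold change of Lars2 are therefore given as a description with no test, while its relatives were picked by name.

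The study compared kidneys of knockout (KO) mice, C57BL/6N-Far2tm2a(KOMP)Wtsi/2J and homozygous for the Far2 knock-out allele, with kidneys of wild-type (WT) C57BL/6N mice. The product of Far2 reduces fatty acyl-CoA to fatty alcohols. There were 3 KO and 3 WT animals, all male and 6 months old, and total RNA of the frozen right kidney was sequenced after depletion of ribosomal RNA. The labels call the animals of a group biological replicates. Libraries carry the numbers 0, 1 and 2 within their group in the count table, and no sample title holds such a number, so a library stands for 1 unnamed mouse of its group.

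Cells hold separate sets of these enzymes for the cytosol and for the mitochondrion, and both sets are encoded in the nucleus. In mammals, Kars and Gars serve both compartments from a single gene, and several cytosolic enzymes are held together with scaffold proteins in the multisynthetase complex. When amino acids run short, uncharged transfer RNA activates the kinase GCN2 (Eif2ak4), and the transcription factor ATF4 then raises genes of amino acid supply, several cytosolic synthetases among them. The kidney's proximal tubule is rich in mitochondria, whose own few protein genes are translated with the mitochondrial set.

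The libraries held 15261362 to 20631158 fragments. Of all genes, 14354 passed the filter on low counts and were tested, all 36 synthetase genes among them. Far2 itself was low, with 28, 19 and 31 fragments in KO libraries and 40, 40 and 22 in WT libraries. The groups overlapped, and the log2 fold change of KO over WT was -0.23 ± 0.24 (SE, n = 3 each; edgeR quasi-likelihood test, adjusted p = 0.781), so this gene-wide count did not separate the labelled genotypes. Which part of Far2 the allele removes is not given in the sources used here. Markers of the proximal tubule summed to 15571 to 16415 CPM (counts scaled to library size) in KO libraries and 14055 to 17547 CPM in WT libraries. Markers of tubular injury summed to 484 to 609 CPM in KO libraries and to 1184, 502 and 507 CPM in WT libraries 0, 1 and 2, which set WT library 0 apart. Macrophage markers summed to 206 CPM in that library, against 109 and 110 CPM in WT libraries 1 and 2 and 88.8 to 121 CPM in KO libraries. Lyz2 alone had 83.7 CPM of that sum. Csf1r was highest in WT library 2, at 63.7 CPM against 61.2 CPM in WT library 0, and the other macrophage markers in WT library 0. The part of these cells in the results below was not tested.

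The synthetase mRNAs other than Lars2 differed little between the genotypes, with log2 fold changes of KO over WT of -0.13 to 0.20. None of these 35 passed an adjusted p under 0.05 in edgeR, where the share over all genes tested was 0%, and none passed in DESeq2, where it was 0.0975%. At an unadjusted p under 0.05, edgeR gave 8.31% of all genes tested (3.17% with KO higher), and Fars2 was the 1 member to pass among the 35 without Lars2. The libraries of the groups did not overlap in 2 of the 36 members, Nars and Fars2, both higher in KO, and in none with KO lower; over all genes the shares were 7.12% with KO higher and 6.96% with KO lower. The 2 of 36 lay near that background. In bulk tissue, fewer cells of a type and less RNA per cell cannot be told apart.

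Small shifts leaned towards KO in both sets. Of the cytosolic genes, 16 of 20 had a higher fitted level in KO, with a median log2 fold change of 0.08 and a range of -0.13 to 0.18. Of the mitochondrial genes, 11 of 16 were higher, with a median of 0.06, which remained 0.06 without Lars2. Over all genes tested, 48.3% were higher in KO and the median was -0.01. Between libraries of a group, the median log2 CPM of a set had a pooled SD of 0.085 (cytosolic) and 0.0337 (mitochondrial). The cytosolic shift was smaller than its SD, and the mitochondrial shift was larger than its own. One library weighed on these counts: KO library 1, the shallowest, was the highest of all 6 for 23 of 36 members, or 63.9%, against 20.9% of all genes. WT library 1 was the lowest for 14 of 36, or 38.9%, against 23.0% of all genes. Without KO library 1 the medians were 0.05 for the cytosolic and 0.02 for the mitochondrial genes, and without WT library 1 they were 0.04 and 0.02. Without WT library 0, where the injury markers were high, they were 0.09 and 0.08. The members share the libraries, so their directions are not independent of each other.

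Summed over the 20 cytosolic genes, the levels were 1275, 1403 and 1291 CPM in KO libraries 0, 1 and 2, and 1269, 1199 and 1282 CPM in WT libraries 0, 1 and 2. The KO sum averaged 1323 ± 69.4 CPM and the WT sum 1250 ± 44.7 CPM (SD, n = 3 each), with overlap between the groups. Summed over the 16 mitochondrial genes, the levels were 606, 633 and 578 CPM in KO libraries and 598, 1034 and 740 CPM in WT libraries. WT libraries 1 and 2 stood above the other 4, and Lars2 alone made up 56.1% and 36.9% of the sum in them, against at most 22.1% elsewhere. Without Lars2 the mitochondrial sum was 472, 499 and 474 CPM in KO libraries and 466, 453.5 and 467 CPM in WT libraries, a mean of 482 ± 15.4 CPM in KO and 462 ± 7.44 CPM in WT. The lowest KO library then stood just above the highest WT library.

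**Figure D1:**
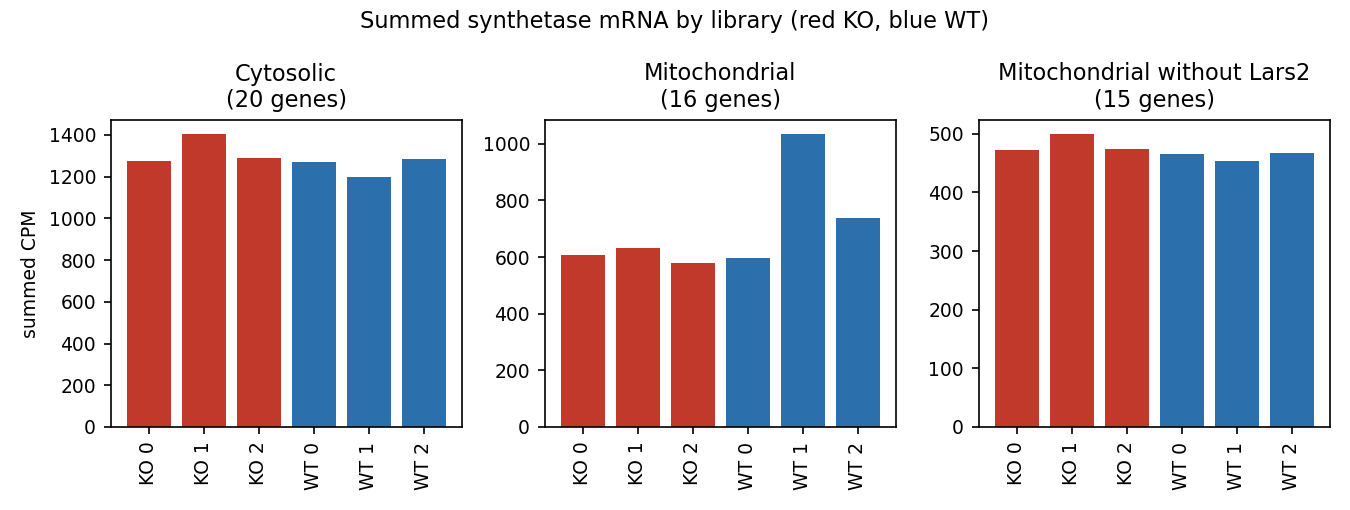
Summed CPM of the cytosolic genes, the mitochondrial genes and the mitochondrial genes without Lars2 in each library (bars from 0, KO in red and WT in blue). WT library 1 reaches 1034 CPM in the mitochondrial sum and 453.5 CPM once Lars2 is left out.

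Among the cytosolic enzymes, the 8 of the multisynthetase complex (Dars, Eprs, Iars, Kars, Lars, Mars, Qars and Rars) had a median log2 fold change of 0.06, and 7 of 8 were higher in KO. The 12 outside the complex had a median of 0.10, with 9 of 12 higher. Per transcript length, the highest of the cytosolic set were Dars, Nars and Qars, at means over 6 libraries of 45.8, 43.8 and 31.5 FPKM (fragments scaled by transcript length and by library size). Vars and Cars were the lowest, at 4.04 and 5.46 FPKM. The median over the 20 was 19.9 FPKM.

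Nars, the asparagine enzyme, was the 1 cytosolic gene whose groups did not overlap. It had 121, 133 and 127 CPM in KO libraries and 120, 116 and 120 CPM in WT libraries. The lowest KO library and the highest WT library were nearly equal, and the log2 fold change was 0.10 ± 0.06 (SE; adjusted p = 0.646). Tars, the threonine enzyme, had the smallest p of the set, with 44.9, 53.4 and 43.5 CPM in KO libraries and 43.7, 38.9 and 42.05 CPM in WT libraries. KO library 1 stood above the rest while KO library 2 lay below WT library 0, and the log2 fold change was 0.18 ± 0.09 (adjusted p = 0.603).

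Aars, which charges alanine, had 115, 142 and 122 CPM in KO libraries and 109, 110 and 122 CPM in WT libraries. KO library 1 was again the highest, and the log2 fold change was 0.15 ± 0.09 (adjusted p = 0.627); the locus of Aars overlaps that of Exosc6, and its counts were the only ones of a member that were not whole. Eprs, a single protein that charges both glutamate and proline, had 172, 189 and 171 CPM in KO libraries and 171, 150 and 165 CPM in WT libraries. Its KO library 2 lay just below WT library 0, and the log2 fold change was 0.13 ± 0.07 (adjusted p = 0.630). Dars, the aspartate enzyme, had 93.4, 99.0 and 90.7 CPM in KO libraries and 93.6, 80.2 and 86.4 CPM in WT libraries, with a log2 fold change of 0.12 ± 0.07 (adjusted p = 0.639).

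Qars, the glutamine enzyme, was the steadiest member. It had 88.5, 89.8 and 85.7 CPM in KO libraries and 89.4, 87.8 and 86.0 CPM in WT libraries, so its highest library was 1.05 times its lowest. At the low end of the set, Vars, the valine enzyme, had 20.15, 17.2 and 19.4 CPM in KO libraries and 21.2, 21.7 and 19.3 CPM in WT libraries. Vars had the most negative fold change of the cytosolic set, -0.13 ± 0.09 (adjusted p = 0.681), and the groups overlapped. Cars, for cysteine, had 17.9, 22.1 and 21.5 CPM in KO libraries and 19.55, 19.3 and 20.5 CPM in WT libraries, with KO library 0 the lowest of all.

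Farsb, the beta subunit of the phenylalanine enzyme, had the widest spread of the set. It had 52.9, 63.0 and 55.5 CPM in KO libraries and 53.8, 43.2 and 56.7 CPM in WT libraries, and WT library 1 was the lowest. The alpha subunit, Farsa, had a log2 fold change of 0.10 ± 0.08, against 0.16 ± 0.11 for Farsb. The remaining cytosolic genes overlapped between the groups as well: Sars, Yars, Mars, Rars, Lars, Gars and Iars had log2 fold changes of 0.02 to 0.12, and Wars, Hars and Kars of -0.04 to -0.01. Within this set the loci of Mars and Yars overlap those of Ddit3 and C77080.

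**Figure D2:**
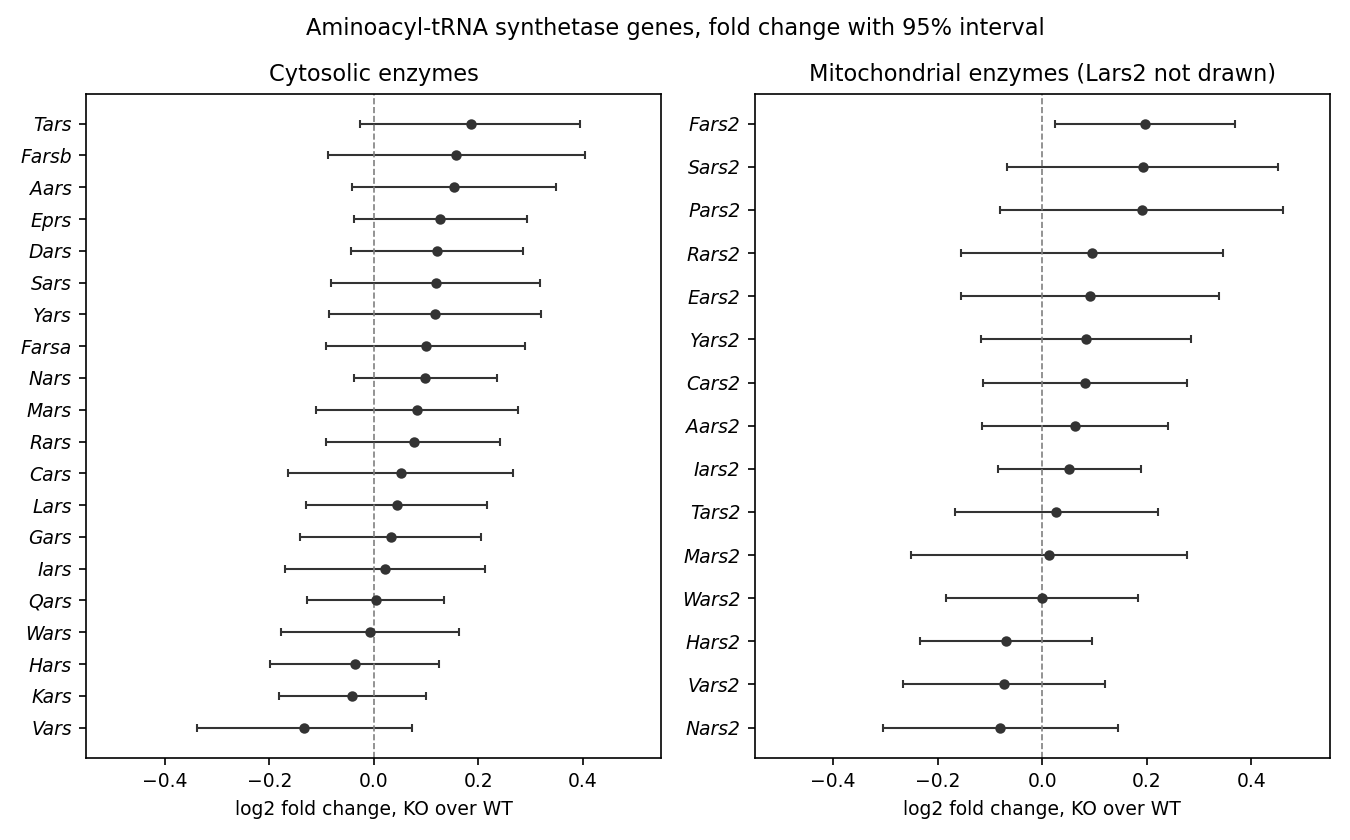
Log2 fold change of KO over WT for the 20 cytosolic and 15 of the 16 mitochondrial genes (points, with 95% intervals as bars); Lars2 is not drawn because its fold change is given without a test. All intervals but that of Fars2 cross 0.

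The promoters of the set were read for the response element that ATF4 binds, since the cytosolic enzymes include known targets of that factor. RefSeq promoter sequences of build GRCm38.p6, each 250 bases before to 50 bases after the gene's start, were matched for 27 of the 36 members, 13 cytosolic and 14 mitochondrial. Cars, Hars, Lars, Nars, Rars, Vars, Wars, Hars2 and Pars2 were not matched. The motif searched was TGATGNAA on both strands. Counted per gene, it was found for 5 of the 13 cytosolic genes (Aars, Gars, Iars, Tars and Yars) and 0 of the 14 mitochondrial ones. Counted per promoter, it was found in 3.97% of 32851 promoters in the table, so these shares differ in unit. For each of these 5 genes the match nearest the start is shown. Each line runs 5′ to 3′ on the gene's own strand, with the match in capitals and 11 bases on each side. Capitals that read as the reverse complement (TTGCATCA or TTTCATCA) mark a match on the opposite strand.
Aars, chr8:111033840-111033869, plus strand, starting 9 bases after the gene's start: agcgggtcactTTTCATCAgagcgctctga
Gars, chr6:55037960-55037989, plus strand, starting 30 bases before: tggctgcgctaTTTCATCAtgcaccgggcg
Iars, chr13:49682126-49682155, plus strand, starting 7 bases after: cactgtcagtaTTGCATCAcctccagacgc
Tars, chr15:11399655-11399684, minus strand, starting 15 bases before: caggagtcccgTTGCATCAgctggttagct
Yars, chr4:129189895-129189924, plus strand, starting 3 bases after: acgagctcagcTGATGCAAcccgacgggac

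A match describes these letters and is not a binding site shown by these data. The 5 genes that hold the motif had log2 fold changes of 0.15 (Aars), 0.03 (Gars), 0.02 (Iars), 0.18 (Tars) and 0.12 (Yars), none past the adjusted threshold. Without KO library 1 the values were 0.06 for Aars, 0.09 for Tars and 0.05 for Yars, and those of Gars and Iars changed sign when other single libraries were left out. The 8 cytosolic genes whose promoters in the table have no match (Dars, Eprs, Farsa, Farsb, Kars, Mars, Qars and Sars) had values of -0.04 (Kars) to 0.16 (Farsb). Positions are counted from the RefSeq start. In the deposited table the gene starts at the same base for Gars, Iars and Tars, but 125 bases farther into the gene for Aars and 108 bases farther upstream for Yars.

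The mitochondrial enzymes were less abundant per length, with a median over the 15 genes other than Lars2 of 5.55 FPKM, against 19.9 FPKM for the cytosolic set. Iars2 and Fars2 were the highest of those 15, at 35.9 and 26.5 FPKM, and Pars2 and Wars2 the lowest, at 2.92 and 3.67 FPKM. Lars2 averaged 48.5 FPKM over the 6 libraries, a mean carried by WT libraries 1 and 2.

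Fars2, the mitochondrial phenylalanine enzyme, was the 1 mitochondrial gene whose groups did not overlap. It had 60.1, 69.0 and 62.3 CPM in KO libraries and 52.55, 56.2 and 58.2 CPM in WT libraries. Every KO library was above every WT library, with a log2 fold change of 0.20 ± 0.08 (SE, n = 3 each) and an adjusted p of 0.599 in edgeR. The authors' deposited table gave Fars2 the smallest q of the members other than Lars2, 0.663, and marked none of those 35 as significant, against 0.657% of the genes the authors tested.

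Sars2, the serine enzyme, had 10.02, 11.3 and 9.49 CPM in KO libraries and 9.03, 9.63 and 8.175 CPM in WT libraries. KO library 2 lay below WT library 1, and the log2 fold change was 0.19 ± 0.12 (adjusted p = 0.634). Pars2, for proline, had 8.54, 7.91 and 8.25 CPM in KO libraries and 7.245, 7.92 and 6.42 CPM in WT libraries. Only WT library 1 reached the KO values, and the log2 fold change was 0.19 ± 0.12 (adjusted p = 0.655).

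Hars2, for histidine, leaned the other way, with 26.5, 26.4 and 26.9 CPM in KO libraries and 28.3, 26.75 and 28.7 CPM in WT libraries. WT library 1 fell among the KO libraries, and the log2 fold change was -0.07 ± 0.07 (adjusted p = 0.788). Yars2, for tyrosine, had 20.3, 22.1 and 19.9 CPM in KO libraries and 20.8, 17.9 and 20.05 CPM in WT libraries, with WT library 1 the lowest.

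Iars2, the isoleucine enzyme, had 145, 150 and 139 CPM in KO libraries and 137, 144 and 138 CPM in WT libraries; its locus overlaps Rab3gap2 and 4 small RNA genes. Wars2, for tryptophan, had 17.65, 17.0 and 16.4 CPM in KO libraries and 16.7, 16.55 and 18.0 CPM in WT libraries. Both overlapped between the groups, and the fitted log2 fold changes were 0.05 for Iars2 and -0.001 for Wars2. Rars2, the arginine enzyme, had the third widest spread of the family after Lars2 and Farsb, with 37.2, 45.2 and 44.0 CPM in KO libraries and 43.4, 33.8 and 41.2 CPM in WT libraries. KO library 0 and WT library 1 were its low libraries. The others, Ears2, Cars2, Aars2, Tars2, Mars2, Vars2 and Nars2, had log2 fold changes of -0.08 to 0.09, and their groups overlapped.

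Set side by side for the same amino acid, the enzymes of the 2 compartments had no common order. In 17 pairings of a mitochondrial enzyme with its cytosolic counterpart, the cytosolic gene had the higher FPKM in all 6 libraries in 9, and the mitochondrial gene in 6 (Cars2, Iars2, Lars2, Vars2, Yars2, and Fars2 over Farsa). In the other 2 pairings, Rars with Rars2 and Farsb with Fars2, the order differed between libraries. The widest gaps towards the cytosol were Eprs over Pars2, at 8.86 to 12.2 times over the libraries, and Nars over Nars2, at 7.07 to 10.2 times. Iars had 0.252 times the FPKM of Iars2. For leucine, the ratio of Lars to Lars2 was 0.415, 0.393 and 0.482 in KO libraries and 0.413, 0.0893 and 0.180 in WT libraries, so WT libraries 1 and 2 lay below the other 4.

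**Figure D3:**
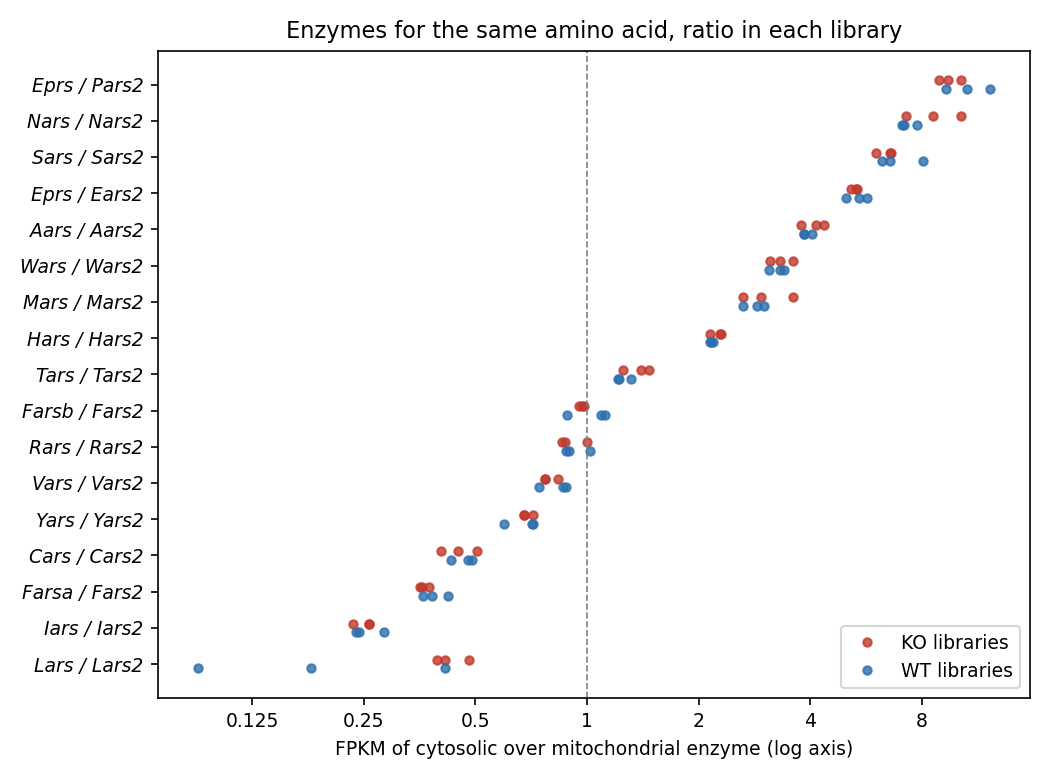
FPKM of each cytosolic gene over that of its mitochondrial counterpart in each library (points, KO in red drawn above WT in blue; log axis, dashed line at equal FPKM). The libraries of a pairing lie close together except for Lars over Lars2, which runs from 0.0893 to 0.482.

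Lars2, the mitochondrial leucine enzyme, at chr9:123366940-123462664 of mm10, had 134, 134 and 105 CPM in KO libraries and 132, 580.5 and 273 CPM in WT libraries. These were 2357, 2017 and 1941 fragments in KO libraries and 2664, 12239 and 4206 in WT libraries, so counting error is small beside the gaps. WT library 0 lay within the KO range, WT library 1 was 3.73 times the mean of the other 5, and WT library 2 was 2.16 times the mean of the remaining 4. The high level was therefore found in 2 of 3 WT mice and not in the third. The KO mean was 124 ± 17.0 CPM and the WT mean 329 ± 229 CPM (SD, n = 3 each), a log2 fold change of -1.40 that became -0.70 without WT library 1 and -1.78 without WT library 0. The authors' deposited table, which rests on the same libraries, gave group means of 26.9 FPKM in KO and 70.2 FPKM in WT.

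Within groups, log2 CPM of Lars2 had a pooled SD of 0.768, and 1.08% of all genes tested had a larger one. Farsb and Rars2, the next members, had SDs of 0.173 and 0.172. The highest library of Lars2 was 5.55 times the lowest, while for the other 35 members this ratio ran from 1.05 (Qars) to 1.46 (Farsb). WT library 1, the high library of Lars2, was the lowest library of 14 members, or 38.9%, against 23.0% of all genes.

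**Figure D4:**
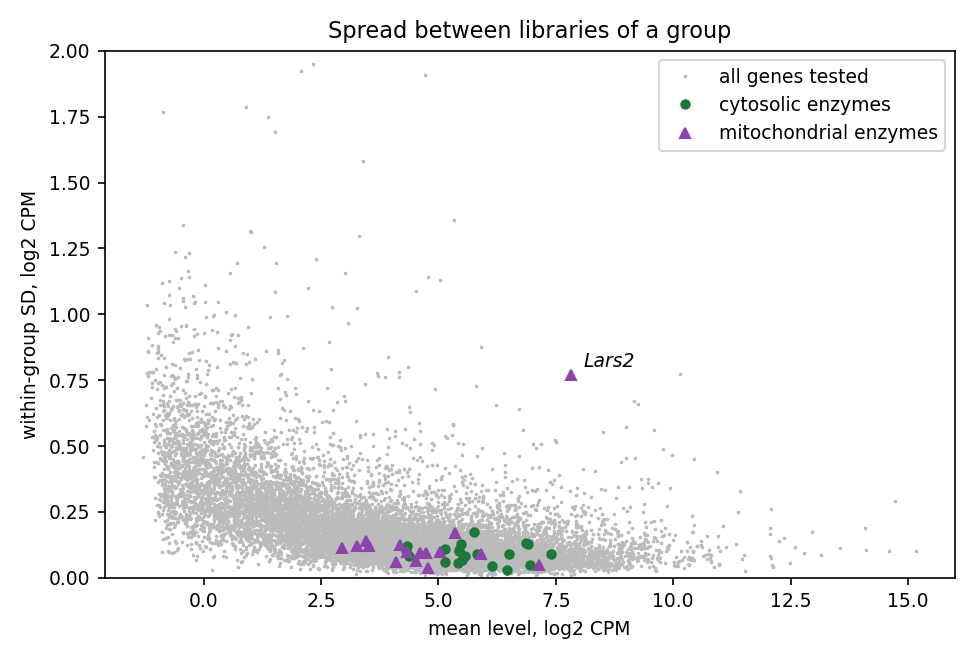
Within-group SD of log2 CPM against mean level for all genes tested (grey) and for the cytosolic (green circles) and mitochondrial (purple triangles) genes; 6 genes lie above the axis limit of 2. Lars2, at 0.768, stands apart from the other members, which reach 0.173.

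Ribosomal and small nucleolar RNA were, like Lars2, highest in WT library 1 and second in WT library 2, while the order of the other 4 libraries differed. The libraries were made after depletion of ribosomal RNA, so the ribosomal RNA counts below are what remained after it. Whether depletion differed between libraries was not tested, and these counts cannot tell it apart from a difference in level. Rn45s, the precursor of cytosolic ribosomal RNA, had 3652, 3296 and 3317 CPM in KO libraries and 4286, 6826 and 4588 CPM in WT libraries. The groups of Rn45s did not overlap (log2 fold change -0.61 ± 0.16, adjusted p = 0.599), and WT library 0 lay above every KO library, whereas Lars2 in that library was within the KO range. The mitochondrial small-subunit ribosomal RNA, mt-Rnr1, had 20146, 16331 and 20775 CPM in KO libraries and 25769, 41192 and 38885 CPM in WT libraries, again with WT library 0 above the KO libraries, and with KO library 2, the lowest for Lars2, the highest of the KO libraries (log2 fold change -0.89 ± 0.18, adjusted p = 0.599). The large-subunit RNA, mt-Rnr2, was listed at 0 in all 6 libraries with a status that marks too many fragments, so it was not measured, and Rn4.5s was listed at 0.

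The 24 small nucleolar RNA genes tested summed to 294, 220 and 202 CPM in KO libraries and 243, 466 and 307 CPM in WT libraries. Of these genes, 23 were highest in WT library 1, or 95.8%, against 21.1% of all genes. The RNA components of the ribonucleases MRP and P varied less. Rmrp had 1841, 1814 and 1623 CPM in KO libraries and 1782, 1914 and 1743 CPM in WT libraries. Rpph1 had 4398, 4835 and 4436 CPM in KO libraries and 4718, 3672 and 3542 CPM in WT libraries. The part of ribosomal and nucleolar RNA in the level of Lars2 was not tested. The annotated transcripts of Lars2 hold 11160 different stretches of 31 bases. On either strand, 0 of them occur exactly in mt-Rnr1, in mt-Rnr2 or in 354 genes annotated as ribosomal RNA. Stretches with mismatches were not searched, and the sequence of Rn45s was not used here. Whether fragments of ribosomal RNA were counted for Lars2 was therefore not tested.

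**Figure D5:**
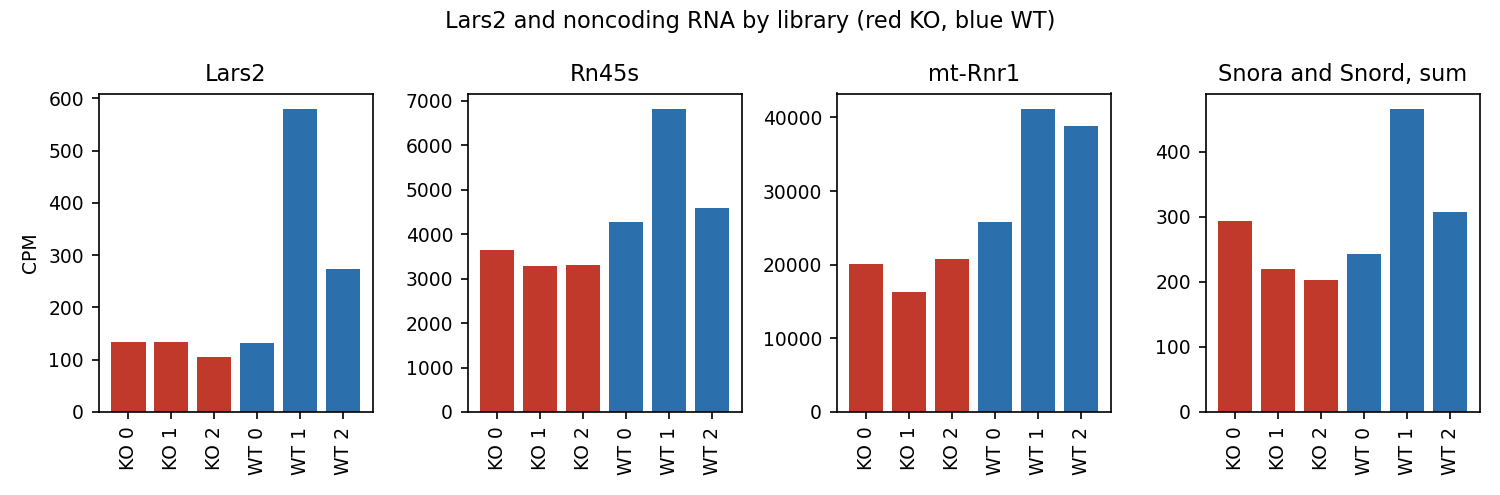
CPM of Lars2, Rn45s, mt-Rnr1 and the sum of 24 small nucleolar RNA genes in each library (bars from 0, each panel with its own scale, KO in red and WT in blue). WT library 1 is the highest in every panel, at 580.5 CPM for Lars2 and 466 CPM for the nucleolar sum.

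The genes whose profile over the 6 libraries was most like that of Lars2, by the root mean square distance of centred log2 CPM, were Hist1h2bf (0.230), Zbtb16 (0.293), Hif3a (0.322), Snora78 (0.351) and Snora44 (0.356). Zbtb16, which encodes a zinc finger transcription factor, had 15.6, 8.18 and 9.70 CPM in KO libraries and 10.8, 42.9 and 19.9 CPM in WT libraries. Like Lars2 it was highest in WT library 1, second in WT library 2, and within the KO range in WT library 0. Hist1h2bf and Hif3a were low, at 0.97 to 4.32 CPM and 0.532 to 2.28 CPM over the libraries, so their profiles rest on few fragments. Of the other synthetase genes, Vars had the smallest distance, 0.810, at rank 3606 of 14353. The distance is not scaled by the size of the changes, so this rank does not show a like profile. The highest library of Vars was 1.26 times its lowest, against 5.55 times for Lars2.

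The partners of the synthetases were at similar levels in both genotypes, and none of the genes in the lists that follow passed an adjusted p under 0.05 in edgeR. Where groups without overlap are named in these lists, the shares over all genes were 7.12% with KO higher and 6.96% with KO lower. The 3 scaffold proteins of the multisynthetase complex were higher in KO in 3 of 3, with a median log2 fold change of 0.05. Eef1e1 had 0.24 ± 0.14, Aimp1 0.05 ± 0.10 and Aimp2 0.01 ± 0.10, with overlapping groups. Of the 6 cytosolic elongation factors, which bring charged transfer RNA to the ribosome or move it on, 5 were higher, with a median of 0.04 (Eef1b2 0.07 ± 0.06, Eef1a1 0.09 ± 0.08 and Eef1g 0.04 ± 0.06). The groups of Eef1a1 did not overlap, with 4646, 4677 and 4404 CPM in KO libraries and 4369, 4192 and 4363 CPM in WT libraries. Of the 14 mitochondrial translation factors, 11 were higher, with a median of 0.07. Among these, the groups did not overlap for Guf1, a mitochondrial elongation factor, with 33.9, 35.3 and 33.0 CPM in KO libraries and 31.5, 30.6 and 29.5 CPM in WT libraries. The same held for Pet112, a subunit of the amidotransferase that makes glutaminyl-tRNA in mitochondria, with 70.8, 80.0 and 78.8 CPM in KO libraries and 68.8, 70.4 and 70.7 CPM in WT libraries. Gfm2, a ribosome recycling factor, had a log2 fold change of 0.11 ± 0.07.

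By count and by median, the amino acid response genes did not lean the way of the synthetases. Of 24 tested, 8 were higher in KO, and the median log2 fold change was -0.09, against -0.01 over all genes. Chac1, Pycr1 and Trib3, all among the lower ones, averaged under 1 CPM in both groups. The summed levels leaned towards KO instead, with overlap between the groups. They were 828, 846 and 807 CPM in KO libraries and 774, 831 and 789 CPM in WT libraries. Atf4 itself had 69.6, 68.9 and 68.4 CPM in KO libraries and 65.1, 59.1 and 63.7 CPM in WT libraries, with no overlap and a log2 fold change of 0.14 ± 0.07 (adjusted p = 0.603). Cth, which makes cysteine from cystathionine, had 189, 211 and 177 CPM in KO libraries and 163, 163 and 156 CPM in WT libraries, again with every KO library above (0.26 ± 0.08, adjusted p = 0.599). Slc7a1, a carrier of arginine and lysine, had 10.6, 9.30 and 9.16 CPM in KO libraries and 11.6, 14.2 and 12.0 CPM in WT libraries, with every KO library below (-0.38 ± 0.12, adjusted p = 0.599). Asns, the asparagine synthetase often used as a marker of this response, had -0.10 ± 0.21. Of the 4 kinases that act upstream on eIF2 alpha, 1 was higher in KO (median -0.04), and Eif2ak4, the sensor of uncharged transfer RNA, had -0.19 ± 0.11, Eif2ak3 -0.05 ± 0.08 and Eif2ak2 0.06 ± 0.11.

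Of 14 genes of transfer RNA maturation, 7 were higher in KO, with a median log2 fold change of 0.00. Trmt10c and Hsd17b10, subunits of the mitochondrial ribonuclease P, had 0.20 ± 0.09 and 0.10 ± 0.06, both without overlap and with KO higher, and D10Wsu52e had 0.08 ± 0.06. Of 14 interferon gamma targets, a list included because that cytokine induces Wars, 7 were higher with a median of 0.00 (Gbp7 0.15 ± 0.08, Igtp 0.25 ± 0.14 and Iigp1 0.38 ± 0.23), and Wars itself had -0.01 ± 0.08.

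The 13 protein genes of the mitochondrial genome, the messages that the mitochondrial set serves, had a median of -0.10, with 4 of 13 higher in KO. In 3 of the 13 the groups did not overlap: mt-Nd4l and mt-Atp8 with KO lower and mt-Nd3 with KO higher. Over all genes tested the shares were 6.96% with KO lower and 7.12% with KO higher, and the count of 3 was not tested against them. The first of these, mt-Nd4l, had 153, 156 and 193 CPM in KO libraries and 193, 244 and 242 CPM in WT libraries (-0.43 ± 0.12, adjusted p = 0.599). The second, mt-Atp8, had 673, 553 and 758 CPM in KO libraries and 758, 995 and 913 CPM in WT libraries (-0.43 ± 0.13, adjusted p = 0.599). In both, the highest KO library and the lowest WT library were nearly equal. Against these, mt-Nd3 had 1913, 1869 and 1880 CPM in KO libraries and 1683, 1592 and 1786 CPM in WT libraries (0.16 ± 0.08, adjusted p = 0.603). For mt-Nd6 the fold change was -0.55 ± 0.19 with overlap. WT libraries 1 and 2 were the highest for mt-Nd4l, mt-Atp8 and mt-Nd6, the 3 genes of the list with the smallest p, but not for the list as a whole. Summed over the 13 genes, the levels were 94715, 92301 and 94911 CPM in KO libraries and 91433, 85656 and 102968 CPM in WT libraries, so WT library 1 was the lowest, and it was also the lowest for mt-Co1, mt-Co2, mt-Co3, mt-Nd1 and mt-Nd3.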

How the data were processed

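Per the labels' protocols, total RNA of 6 frozen right kidneys was made into stranded libraries after ribosomal RNA depletion. Listed in the submitters' processing notes, without role or order, are TopHat2 2.0.13, Bowtie2 2.2.3, Cufflinks 2.2.1, Cuffdiff, SAMtools 1.2, cutadapt 1.2.1 and mm10. Which gene models and strand setting were used is not given in the sources used here. Therefore genes whose loci overlap (4 members) remain uncertain. Each gene and library has an estimated count of fragments and an FPKM value, as deposited. In the authors' comparison table, per the file headers, each gene has a group mean FPKM, a log2 fold change, a p-value and a q-value.

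After rounding of the estimated counts, a filterByExpr filter and TMM scaling, genes were tested in edgeR 4.0.16 (R 4.3.3; quasi-likelihood F test, 2 groups, two-sided), with Benjamini-Hochberg adjustment over 14354 genes and a threshold of 0.05. The biological coefficient of variation was 10.1%. CPM uses TMM-scaled library sizes. Within-group pairs of libraries differed by 6.32 to 24.88 times counting variance, which is more than counting error alone. This does not test whether libraries of a group came from the same animal. With 15261362 to 20631158 fragments per library, counting error is small for most members. The alternatives tried were upper-quartile or RLE scaling, no filter, 1 CPM in 3 libraries, DESeq2 1.42.0, limma-voom and limma 3.58.1 on log2(FPKM + 1) or log2(FPKM + 0.1), removal of 769 noncoding genes and Lars2, a threshold of 0.10, and leaving out each library.

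The members, the lists and the motif were chosen with earlier results of these data known. Values in every library are given for Lars2, for the 3 highest and 2 lowest members of each set by FPKM, for members without overlap, for the 5 smallest p per set and for the 3 largest SDs, and from each list the 3 genes with the smallest p are named. Asns, mt-Nd3, other mitochondrial-genome genes, the list sums and the 5 genes with the motif were added outside that rule.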

Additional observations from a re-analysis of the deposited data

How the results depend on the processing

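None of the 35 members other than Lars2 passed the threshold under any alternative that gave a value for single members, where the smallest adjusted p was 0.427. The count of all genes called was 0 as reported, 14 with DESeq2, 1 with no filter and 1 at an adjusted p under 0.10, and 0 to 1 when a library was left out. The cytosolic median ran from 0.0412 to 0.131 and the mitochondrial median from 0.0182 to 0.0855 when a library was left out. The mitochondrial median was 0.0211 without KO library 1 and 0.0182 without WT library 1. Lars2 ran from -1.78 to -0.70 when a library was left out and from -1.42 to -1.12 under the other settings. Of 525 values of single members under an alternative, 497 kept their direction and 28, in 9 members, turned. Mars2 was -0.00274 with upper-quartile scaling, -0.00433 on log2(FPKM + 1) and -0.00537 on log2(FPKM + 0.1). Qars was -0.0119 with upper-quartile scaling and -8.67e-05 at 1 CPM in 3 libraries. Wars was 0.0129 on log2(FPKM + 1) and 0.0138 on log2(FPKM + 0.1). Wars2 was 0.00351 with RLE, 0.00272 with no filter, 0.00354 with DESeq2 and 0.00208 with limma-voom. With a library left out, the ranges were -0.00452 to 0.140 for Cars, -0.0162 to 0.0852 for Gars, -0.0350 to 0.0952 for Iars, -0.0815 to 0.0823 for Mars2, -0.0116 to 0.0253 for Qars, -0.00266 to 0.178 for Rars2, -0.0233 to 0.0890 for Tars2, -0.0536 to 0.0284 for Wars and -0.0270 to 0.0356 for Wars2. The cause of these turns was not tested. No paired analysis was possible because the library numbers of the table match no sample label.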
